A study of Arabidopsis thaliana with 24 samples.

Results

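The genes described here are 119 Arabidopsis genes that RefSeq lists by locus code alone. In germinating seeds their transcripts were less abundant on uniconazole, on average over the pkl mutant and wild type. The log2 effect was negative in each genotype for all 119, but it was as small as -0.24 in pkl and -0.12 in wild type. They were found among 11933 probe sets that report 1 gene without a symbol, of which 7837 remained once AT4G14090, AT4G36700 and AT2G43860 were set aside and a group mean signal of at least 110 was required in 1 or more groups. For each probe set a mean uniconazole effect was taken as the average, over both genotypes, of uniconazole minus solvent in group means of log2(signal + 16). A mean pkl effect was the average, over both media, of pkl minus wild type. The genes were selected on these 2 values: a gene was kept when its mean uniconazole effect was -0.6 or lower and its mean pkl effect lay between -0.4 and 0.4. These values chose the genes, so every difference between uniconazole and solvent in them is a description without a test. Only the difference between the 2 uniconazole effects was tested. The limits on the 2 mean effects did not use it. The signal limit of 110 can be met through 1 group alone, and in such genes the difference is not free of the choice.

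Gibberellins are plant hormones that promote germination and cell expansion, largely by removing DELLA repressor proteins. Uniconazole is a triazole compound that blocks oxidation steps of gibberellin synthesis. PICKLE (PKL) is a CHD3-class chromatin remodeller, and seedlings that lack it can keep embryonic traits, a phenotype known to be more frequent when gibberellin is low. No function is given for the 119 genes, because the annotation used here names none. 1 of them, AT4G28650, carries the synonym PXL2 in RefSeq.

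RNA from whole germinating seeds was hybridised to Affymetrix ATH1 arrays, 24 in all, with 6 in each of 4 groups that the submitters call biological replicates. The groups were the pkl mutant on uniconazole, the pkl mutant on solvent alone, wild type (Columbia) on uniconazole, and wild type on solvent alone. Both treatments were in agar medium with Murashige and Skoog salts and Gamborg's vitamins. It held 10 nM uniconazole (uniconazole-P) in methanol or 0.01% methanol alone, and all seeds were kept in constant light. The pkl allele and the age at harvest are not given in the labels. In whole seeds, fewer cells of a type and less RNA per cell cannot be told apart. PKL itself was not analysed here, so the genotype labels could not be checked on its transcript. Signals are probe set intensities on the deposited linear scale, and median signals of the arrays ran from 310.2 to 371.4. Arrays of 1 group correlated at 0.971 to 0.983 over all probe sets.

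The 8 genes with the lowest mean uniconazole effect were between 2.56 and 4.07 times lower on uniconazole in pkl and between 2.14 and 2.84 times lower in wild type. In each of them, in both genotypes, all 6 arrays on uniconazole read below all 6 arrays on solvent. The lowest, median and highest signals of the 6 arrays of each group follow. AT5G62340 gave signals of 488, 675 and 808 in pkl on uniconazole, against 2479.6, 2718 and 2989 in pkl on solvent. Its signals were 931, 969.8 and 1157 in wild type on uniconazole and 2084, 2661 and 2843 in wild type on solvent. This was the largest reduction of the set in pkl, 4.07-fold, and it was 2.58-fold in wild type. AT5G62330 gave signals of 39.5, 78.8 and 159.9 in pkl on uniconazole, against 216, 345 and 404 in pkl on solvent. Its signals were 34.5, 125 and 173 in wild type on uniconazole and 194, 365 and 406 in wild type on solvent. Both groups on uniconazole held arrays under 54.9, the level taken from bacterial control probe sets. AT5G47330 gave signals of 372, 522 and 739.8 in pkl on uniconazole, against 1356, 1749.8 and 1992 in pkl on solvent. Its signals were 464, 603 and 732 in wild type on uniconazole and 1366, 1585 and 1768 in wild type on solvent. It was 3.27-fold lower on uniconazole in pkl and 2.71-fold lower in wild type.

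AT1G48330 gave signals of 199, 242 and 316 in pkl on uniconazole, against 585, 676 and 906 in pkl on solvent. Its signals were 165, 223 and 273 in wild type on uniconazole and 389, 612 and 699 in wild type on solvent. Its mean was 2.85-fold lower in pkl and 2.66-fold lower in wild type. AT1G61840 gave signals of 28.0, 147 and 236 in pkl on uniconazole, against 370.5, 434 and 532 in pkl on solvent. Its signals were 119, 212 and 293 in wild type on uniconazole and 348, 468 and 555 in wild type on solvent. The lowest array of pkl on uniconazole was the only one of the 24 under the bacterial control level. AT1G80280 gave signals of 192, 226 and 284 in pkl on uniconazole, against 552, 603 and 674 in pkl on solvent. Its signals were 232, 301 and 343 in wild type on uniconazole and 718, 789 and 947 in wild type on solvent. With either medium this gene averaged lower in pkl than in wild type. AT5G62280 gave signals of 32.5, 130.1 and 150.2 in pkl on uniconazole, against 250.2, 363 and 459 in pkl on solvent. Its signals were 43.1, 134 and 169.9 in wild type on uniconazole and 199, 267 and 352 in wild type on solvent. The lowest array of each group on uniconazole lay under the bacterial control level, and no other array did. AT1G78170 gave signals of 249, 339 and 385 in pkl on uniconazole, against 658, 865 and 906 in pkl on solvent. Its signals were 301, 415 and 512 in wild type on uniconazole and 743, 1059 and 1314 in wild type on solvent. The folds were 2.56 in pkl and 2.58 in wild type, and the difference between the genotypes' effects was 0.01 ± 0.19 on the log2 scale (estimate ± SE).

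**Figure D1:**
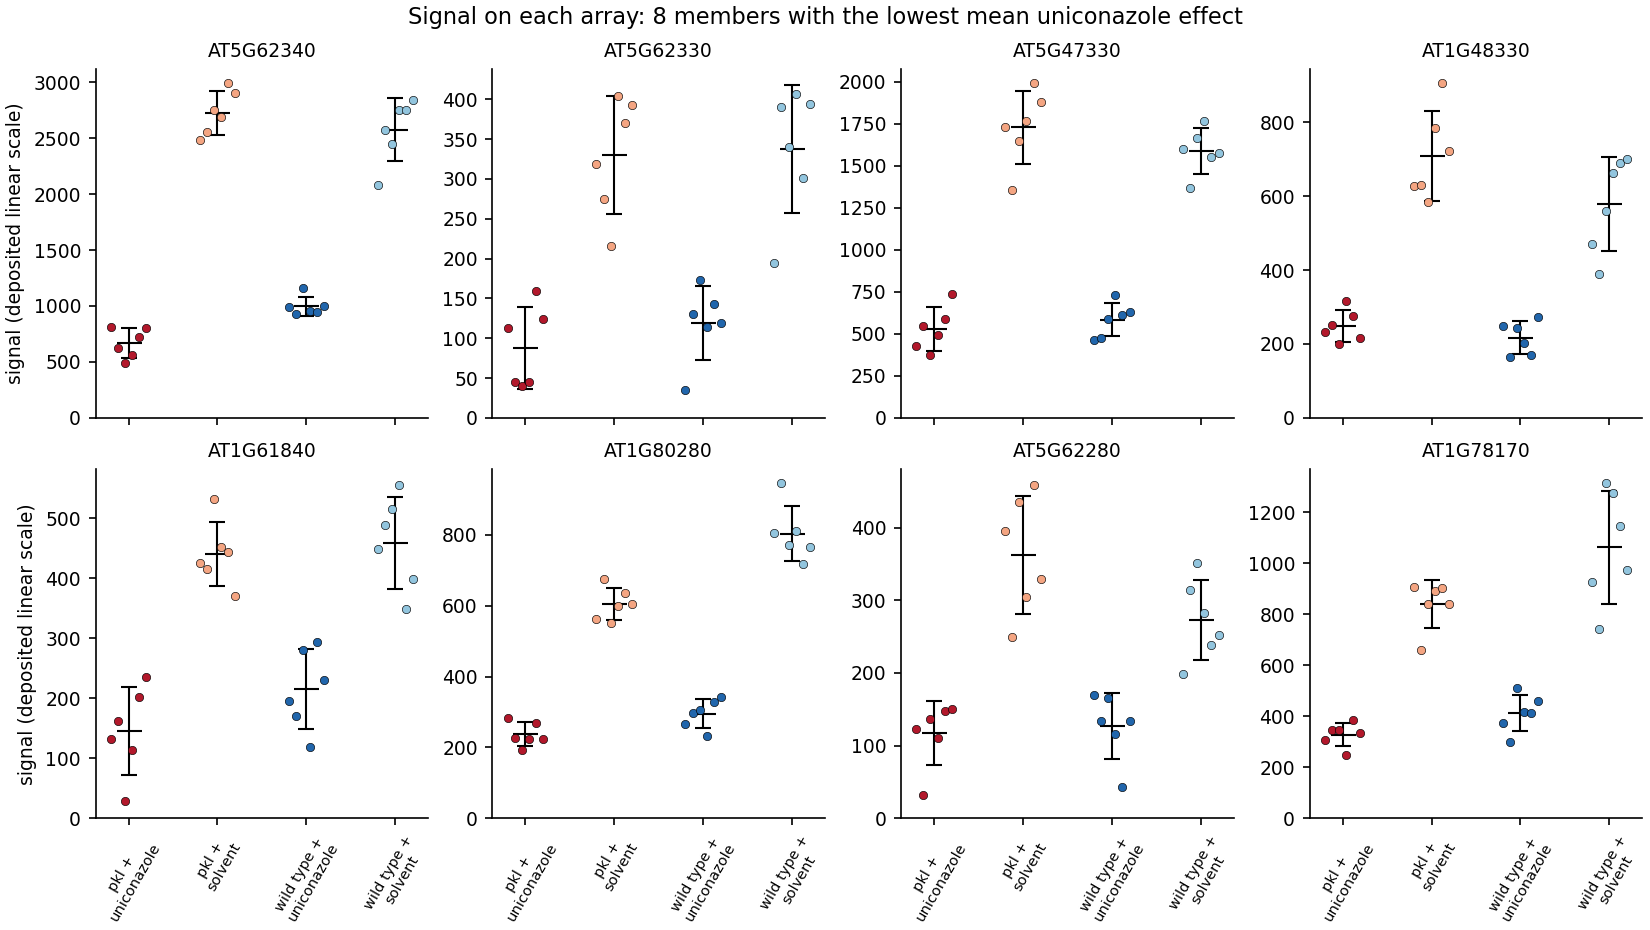
Signal on the deposited linear scale (y axis, from 0) on each of 24 arrays for the 8 genes with the lowest mean uniconazole effect, 1 panel per gene. Points are arrays, long bars are group means and whiskers are 1 SD (n = 6). In all 8 panels the points on uniconazole lie below those on solvent of the same genotype, and AT5G62340 has the widest gap, 669 in pkl on uniconazole against 2727 in pkl on solvent.

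A further 19 genes had a mean uniconazole effect of -1 or lower, which makes 27 in all. AT3G16370 is given with the brightest genes and the other 18 here. Across the 27, the fold by which the mean was lower on uniconazole ran from 2.02 to 4.07 in pkl (median 2.56) and from 1.82 to 2.84 in wild type (median 2.34). Their highest group means spanned 167 to 9777, from dim to bright probe sets. Groups are given as mean ± SD of 6 arrays. AT2G32560 averaged 1805 ± 454 in pkl on uniconazole and 4649 ± 266 in pkl on solvent, and 1808 ± 467 in wild type on uniconazole and 3508 ± 278 in wild type on solvent. AT2G47440 averaged 966 ± 54.2 in pkl on uniconazole and 2449 ± 183 in pkl on solvent, and 901 ± 94.1 in wild type on uniconazole and 2140.4 ± 55.3 in wild type on solvent. AT2G27420 averaged 879 ± 211 in pkl on uniconazole and 2234 ± 519 in pkl on solvent, and 1244 ± 431 in wild type on uniconazole and 2481 ± 424 in wild type on solvent. Among these 3 bright genes, AT2G47440 had the smallest SD in every group. AT4G26790 averaged 1060.3 ± 178 in pkl on uniconazole and 2305 ± 522 in pkl on solvent, and 1057 ± 202 in wild type on uniconazole and 2126 ± 522 in wild type on solvent. AT3G49220 averaged 721 ± 61.6 in pkl on uniconazole and 1661 ± 226 in pkl on solvent, and 949 ± 103 in wild type on uniconazole and 1747 ± 241 in wild type on solvent. AT3G12710 averaged 413 ± 64.4 in pkl on uniconazole and 1014 ± 238 in pkl on solvent, and 413 ± 73.6 in wild type on uniconazole and 751 ± 108 in wild type on solvent. The means on uniconazole of AT4G26790 and AT3G12710 were nearly equal in the 2 genotypes. AT2G46780 averaged 398 ± 94.4 in pkl on uniconazole and 952 ± 137 in pkl on solvent, and 435 ± 85.4 in wild type on uniconazole and 1044 ± 151 in wild type on solvent. AT3G45320 averaged 342 ± 42.6 in pkl on uniconazole and 896 ± 141 in pkl on solvent, and 501 ± 132 in wild type on uniconazole and 916 ± 121 in wild type on solvent. AT1G05170 averaged 353 ± 121 in pkl on uniconazole and 757 ± 59.0 in pkl on solvent, and 397 ± 97.3 in wild type on uniconazole and 935 ± 102 in wild type on solvent. AT2G46780 was lower by about the same fold in both genotypes, 2.39 in pkl and 2.40 in wild type, while the fold of AT3G45320 was 2.62 in pkl and 1.83 in wild type.

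AT5G26790 averaged 298 ± 28.2 in pkl on uniconazole and 632 ± 65.0 in pkl on solvent, and 227 ± 48.1 in wild type on uniconazole and 531 ± 66.3 in wild type on solvent. AT3G05900 averaged 222 ± 28.8 in pkl on uniconazole and 529.8 ± 144 in pkl on solvent, and 285 ± 25.5 in wild type on uniconazole and 551 ± 91.4 in wild type on solvent. AT3G43270 averaged 169 ± 11.9 in pkl on uniconazole and 386 ± 30.9 in pkl on solvent, and 186 ± 21.9 in wild type on uniconazole and 422 ± 52.1 in wild type on solvent. The spread of AT3G43270 within groups was small beside the gap between media. AT4G21865 averaged 117 ± 41.9 in pkl on uniconazole and 346 ± 72.3 in pkl on solvent, and 113 ± 27.2 in wild type on uniconazole and 271 ± 79.5 in wild type on solvent. AT1G10990 averaged 105 ± 22.1 in pkl on uniconazole and 290.4 ± 17.0 in pkl on solvent, and 95.7 ± 33.9 in wild type on uniconazole and 231 ± 30.4 in wild type on solvent. AT2G37880 averaged 78.2 ± 33.3 in pkl on uniconazole and 202 ± 33.5 in pkl on solvent, and 79.1 ± 29.5 in wild type on uniconazole and 164 ± 47.8 in wild type on solvent. In all 3 of these dim genes the groups on uniconazole of the 2 genotypes lay near each other. AT4G35690 averaged 64.2 ± 36.8 in pkl on uniconazole and 163 ± 24.5 in pkl on solvent, and 77.8 ± 19.4 in wild type on uniconazole and 194 ± 51.3 in wild type on solvent. AT1G22330 averaged 59.5 ± 18.5 in pkl on uniconazole and 120.2 ± 24.1 in pkl on solvent, and 63.2 ± 14.7 in wild type on uniconazole and 167 ± 50.4 in wild type on solvent. AT3G59850 averaged 56.8 ± 36.8 in pkl on uniconazole and 167 ± 38.5 in pkl on solvent, and 75.0 ± 22.5 in wild type on uniconazole and 138 ± 45.8 in wild type on solvent. AT3G59850 was the 1 gene of the 27 in which arrays of the 2 media overlapped, and they did so in wild type only, while its pkl arrays were apart.

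The 4 brightest genes were strongly expressed in every group. AT5G45670 averaged 4931 ± 611 in pkl on uniconazole and 10015 ± 322 in pkl on solvent, and 6027 ± 571 in wild type on uniconazole and 11125 ± 654 in wild type on solvent. AT3G16370 averaged 4248 ± 746 in pkl on uniconazole and 9777 ± 634 in pkl on solvent, and 4766 ± 287 in wild type on uniconazole and 9676 ± 691 in wild type on solvent. Their folds in pkl were 2.03 and 2.30, and in wild type 1.85 and 2.03. AT5G59130 averaged 4198 ± 280.3 in pkl on uniconazole and 6987 ± 111 in pkl on solvent, and 3763 ± 320.0 in wild type on uniconazole and 5743 ± 519 in wild type on solvent. AT3G49720 averaged 4159 ± 299.9 in pkl on uniconazole and 6713 ± 141 in pkl on solvent, and 4411 ± 577 in wild type on uniconazole and 6329 ± 152 in wild type on solvent. Their reductions were smaller, 1.66-fold and 1.61-fold in pkl and 1.53-fold and 1.43-fold in wild type. In all 4 the arrays of the 2 media did not overlap in either genotype. A further 8 genes had a highest group mean of 3000 or more. AT1G04430 averaged 3462 and 5711 in pkl on uniconazole and on solvent, and 4018 and 6062 in wild type. AT1G67750 averaged 3112 and 4987 in pkl on uniconazole and on solvent, and 3124 and 4622 in wild type. AT5G39580 averaged 2663 and 4632 in pkl on uniconazole and on solvent, and 2883 and 4535 in wild type. Of these 3, AT5G39580 is the one whose wild-type arrays overlapped between media. AT3G07320 averaged 2001 and 4107 in pkl on uniconazole and on solvent, and 2420.2 and 4264 in wild type. AT4G27720 averaged 2191 and 3422 in pkl on uniconazole and on solvent, and 2542 and 3849.8 in wild type. AT4G29690 averaged 1965 and 3516 in pkl on uniconazole and on solvent, and 1649 and 2574 in wild type. AT4G29690 was brighter in pkl than in wild type on both media. AT5G13400 averaged 1589 and 2737 in pkl on uniconazole and on solvent, and 2050.5 and 3092 in wild type, so it was brighter in wild type than in pkl on both media. AT2G32560, given above, completes the group.

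Over the whole set, the highest group mean ran from 111 to 11125 with a median of 683, against 658 over the 7840 locus-only probe sets above the same level of signal. 41 genes exceeded 1000 and 31 lay under 300. The group with the highest mean was pkl on solvent for 62 genes and wild type on solvent for 57. The group with the lowest mean was pkl on uniconazole for 84 genes and wild type on uniconazole for 35. The mean was at least 2 times lower on uniconazole for 46 genes in pkl and for 28 in wild type. The median coefficient of variation within groups was 16.6% for the 119 genes and 12.7% over the 16319 probe sets above the signal level. AT2G17070 was the 1 gene whose mean on uniconazole reached the bacterial control level: it averaged 49.5 ± 21.8 in wild type on uniconazole and 111 ± 31.5 in wild type on solvent, at least 2.02-fold lower.

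Arrays on uniconazole all read below arrays on solvent in pkl for 93 genes (78.2%), against 6.00% of all 22746 probe sets. In wild type this held for 73 genes (61.3%), against 3.14% of all probe sets. Because uniconazole effects chose the genes, nothing is read from either gap. It held in both genotypes for 71 genes, in pkl only for 22, in wild type only for AT1G66760 and AT2G30890, and in neither for 24. Signal differed between these classes, with a median highest group mean of 1029 in the 71, 501 in the 22 and 163 in the 24. All 119 genes are named here or above. In the strongest band (a mean effect of -1 or lower), the 26 genes other than AT3G59850 had no overlap in either genotype. In the middle band, with a mean effect from -1 to -0.7, there were 48 genes and folds of 1.32 to 2.59 in pkl and 1.26 to 2.26 in wild type. In this band 29 genes had no overlap in either genotype, namely AT1G02810, AT1G04680, AT1G06100, AT1G12500, AT1G14120, AT1G27210, AT1G30690, AT1G44830, AT1G56680, AT1G64710, AT1G76620, AT2G19660, AT2G34930, AT2G43880, AT3G06070, AT3G07320, AT3G07470, AT3G15720, AT3G59710, AT4G20320, AT4G29690, AT4G31760, AT4G35110, AT5G02170, AT5G02540, AT5G11000, AT5G13100, AT5G45670 and AT5G51520. Another 11 were apart in pkl only, namely AT1G06930, AT2G22200, AT2G27140, AT3G05150, AT3G15800, AT3G17380, AT4G29030, AT5G07800, AT5G10830, AT5G39580 and AT5G57500. The arrays of 8 overlapped in both genotypes, namely AT1G02710, AT1G15190, AT1G30080, AT2G17070, AT2G21185, AT2G43870, AT4G26540 and AT5G15140.

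The weakest band held 44 genes with a mean effect over -0.7, and folds of 1.21 to 2.34 in pkl and 1.06 to 2.41 in wild type. Of these, 16 had no overlap in either genotype, namely AT1G04430, AT1G22910, AT1G67750, AT1G70280, AT2G38610, AT2G44500, AT3G14740, AT3G49720, AT3G51410, AT4G24780, AT4G27720, AT4G28310, AT4G28650, AT5G13400, AT5G42860 and AT5G59130. Another 10 were apart in pkl only, namely AT1G10400, AT1G50630, AT2G30150, AT3G23880, AT3G60780, AT4G13210, AT4G38410, AT5G09890, AT5G47920 and AT5G67050. The remaining 16, besides AT1G66760 and AT2G30890, overlapped in both genotypes and were AT1G12960, AT1G14220, AT1G58070, AT1G73340, AT1G74300, AT2G04070, AT2G04500, AT2G16230, AT2G18620, AT2G47560, AT3G06750, AT3G15240, AT3G24210, AT3G46700, AT5G47900 and AT5G56980. At the limit on the uniconazole effect, the nearest genes kept were AT1G22910, AT4G13210 and AT1G70280, each at -0.608, and the nearest left out were AT4G39840 (-0.597), AT4G30470 (-0.595) and AT5G23830 (-0.595). At the limit on the pkl effect, AT1G58070 (0.399), AT2G16230 (-0.395) and AT3G17380 (-0.382) were kept, while AT2G05560 (-0.404), AT4G35320 (-0.408) and AT5G45950 (-0.416) were left out. At the signal limit, AT3G46700 (111), AT1G15190 (114) and AT1G14220 (119) were kept. Just under it lay a second probe set of AT1G22330 (109), AT5G38070 (109) and AT1G79620 (105).

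Averaged over the 119 genes, log2(signal + 16) was 8.44 ± 0.12 in pkl on uniconazole and 9.38 ± 0.08 in pkl on solvent (SD, n = 6 each). It was 8.56 ± 0.12 in wild type on uniconazole and 9.34 ± 0.09 in wild type on solvent. Many of the genes were lowest on the same array of their group. Replicate 3 was the lowest of its group for 49 genes in pkl on uniconazole, replicate 2 for 40 genes in pkl on solvent, replicate 2 for 45 genes in wild type on uniconazole, and replicate 1 for 31 genes in wild type on solvent. The log2 3′/5′ ratio of the actin control, a measure of RNA integrity, ran from 2.68 to 2.92 in pkl on uniconazole and from 2.45 to 2.92 in pkl on solvent. In wild type it ran from 2.44 to 3.10 on uniconazole and from 2.27 to 2.61 on solvent. The GAPDH ratio ran from -0.28 to 0.2 in pkl on uniconazole and from -0.52 to -0.16 in pkl on solvent. In wild type the GAPDH ratio ran from -0.47 to 0.2 on uniconazole and from -0.34 to 0.26 on solvent. The ubiquitin ratio ran from 0.99 to 1.29 and from 0.83 to 1.32 in pkl, and from 0.96 to 1.44 and from 0.92 to 1.42 in wild type, in the same order. With the GAPDH and actin ratios as covariates, the median uniconazole effect of the 119 genes was -0.77 in pkl and -0.67 in wild type, against -0.87 and -0.72 without them.

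**Figure D2:**
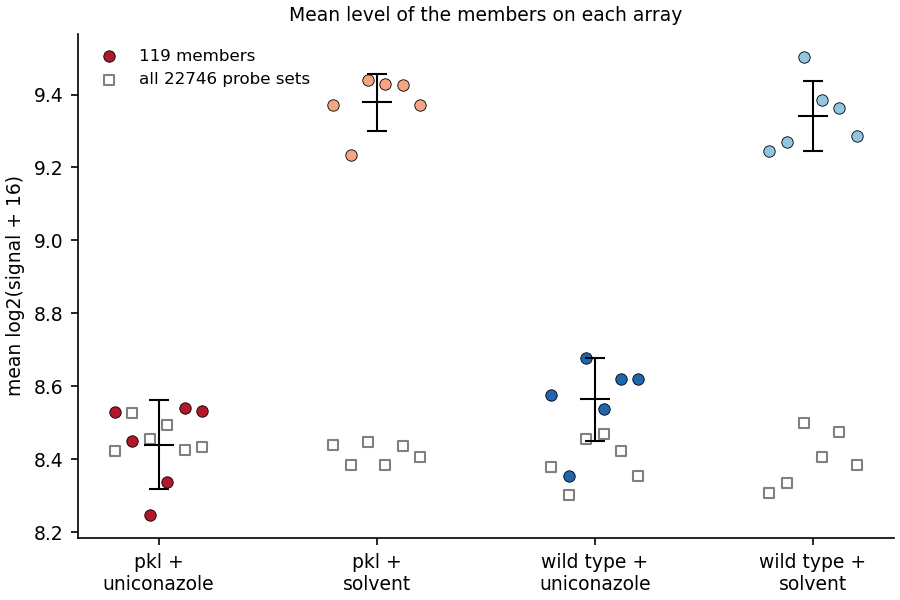
Mean log2(signal + 16) of the 119 genes (filled circles) and of all 22746 probe sets (open squares) on each array, by group. Long bars and whiskers are the mean and SD over 6 arrays for the 119 genes. Their mean is 8.25 to 8.54 in pkl on uniconazole and 9.23 to 9.44 in pkl on solvent, and 8.35 to 8.68 in wild type on uniconazole and 9.24 to 9.50 in wild type on solvent, while the squares of the 4 groups overlap.

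The question left for a test was whether uniconazole lowered these genes by the same amount in both genotypes. The difference was the uniconazole effect in pkl minus that in wild type, so a negative value means a larger reduction in pkl, and it was fitted with limma over all 22746 probe sets with Benjamini-Hochberg adjustment. 1 of the 119 genes passed (0.840%), against 0.141% of all probe sets. That gene was AT5G62340, at -0.67 ± 0.14 on the log2 scale (SE, adjusted p = 0.0440, limma), with uniconazole effects of -2.02 ± 0.10 in pkl and -1.35 ± 0.10 in wild type. Its mean was 669 ± 132 in pkl and 997 ± 83.0 in wild type on uniconazole, and 2727 ± 197 and 2575 ± 280.1 on solvent. Its arrays of pkl and wild type were apart on uniconazole (488 to 808 in pkl, 931 to 1157 in wild type) and overlapped on solvent. The call sat at the threshold: with 1 array left out it was lost for 19 of 24 arrays, at limma adjusted p of 0.0523 to 0.0949, and it was kept without replicate 6 of wild type on solvent, replicate 1 of pkl on solvent, or replicate 1, 5 or 6 of pkl on uniconazole. Over all 33 settings tried its adjusted p from limma ran from 0.0205 to 0.146.

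AT4G29030 came next, at -0.71 ± 0.16 (limma adjusted p = 0.0706), and did not pass. Its signals were 427, 715 and 757 (lowest, median and highest) in pkl on uniconazole, against 1260.2, 1387 and 1479 in pkl on solvent. They were 747, 1095 and 1272 in wild type on uniconazole, against 1171, 1365 and 1426 in wild type on solvent. The 2 media were apart in pkl and overlapped by a single array on uniconazole in wild type. Without replicate 2 of wild type on uniconazole the estimate was -0.81 and the adjusted p from limma 0.00929, and over all 33 settings tried the adjusted p ran from 0.00929 to 0.185. The 2 most negative and the 2 most positive estimates did not pass. They were -1.05 ± 0.49 for AT2G47560, -0.88 ± 0.50 for AT2G43870, 0.66 ± 0.68 for AT2G21185 and 0.84 ± 0.38 for AT2G04070, with adjusted p-values from limma of 0.620, 0.725, 0.885 and 0.589. AT2G47560 averaged 56.8 ± 34.2 in pkl on uniconazole and 133 ± 29.9 in pkl on solvent, and 104 ± 48.1 in wild type on uniconazole and 110.2 ± 46.7 in wild type on solvent. AT2G04070 showed the opposite pattern. It averaged 77.8 ± 29.4 in pkl on uniconazole and 94.0 ± 34.0 in pkl on solvent, and 70.0 ± 26.6 in wild type on uniconazole and 169 ± 61.6 in wild type on solvent. Only wild type on solvent reached the signal limit of 110 in this gene, so its positive estimate is not free of the choice.

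Most of the genes had the same sign. The difference was negative for 94 of 119 genes (79%) with a median of -0.16, while it was negative for 46.8% of all probe sets (median 0.02) and for 49.9% of the 16319 above the signal level (median 0.00). At an unadjusted p under 0.05, 20 genes (16.8%) had a negative difference, against 3.63% of all probe sets, and 1 (0.840%), AT2G04070, a positive one, against 4.05%. Among the 16319 probe sets above the signal level, 750 had a negative difference at that p and 656 a positive one. The 20 included 9 with a highest group mean of 1000 or more, and their estimates ran from -1.05 to -0.31. Among them, AT5G11000 had an estimate of -0.41 ± 0.12, AT4G24780 of -0.50 ± 0.15 and AT1G02810 of -0.33 ± 0.10, with adjusted p-values from limma of 0.255, 0.268 and 0.334. AT5G11000 averaged 902 and 1831 in pkl on uniconazole and on solvent, and 974 and 1484 in wild type. AT4G24780 averaged 483 and 941 in pkl and 495 and 680.2 in wild type. In both of these genes the solvent means differed more between genotypes than the uniconazole means did.

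The share of negative differences went with signal. It was 20 of 31 genes (64.5%) under 300, 34 of 47 (72.3%) from 300 to 1000 and 40 of 41 (97.6%) from 1000 upwards, against 38.0%, 49.2% and 56.1% of all probe sets in those bands. The exception in the brightest band was AT1G78170, at 0.01. The medians of the 3 bands were -0.15, -0.10 and -0.19. In the band under 300, some genes, such as AT2G04070, met the signal limit in 1 group only, so the share there is not free of the choice. The 162 locus-only probe sets that the mirror rule finds, with a mean uniconazole effect of 0.6 or higher, had a median difference of 0.22. Of these 162, 44 were negative and 2 passed higher in limma (4 lower and 39 higher at an unadjusted p under 0.05). A positive value there means a larger rise in pkl. The 42 locus-only probe sets lower on uniconazole and also lower in pkl had a median difference of -0.20, with 30 of 42 negative and 0 passing in limma (12 lower and 1 higher at an unadjusted p under 0.05). The 23 locus-only probe sets lower on uniconazole and higher in pkl had a median difference of -0.04 (range -0.52 to 1.46), with 14 of 23 negative and 0 passing in limma (3 lower and 1 higher at an unadjusted p under 0.05). These sets share the 24 arrays.

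**Figure D3:**
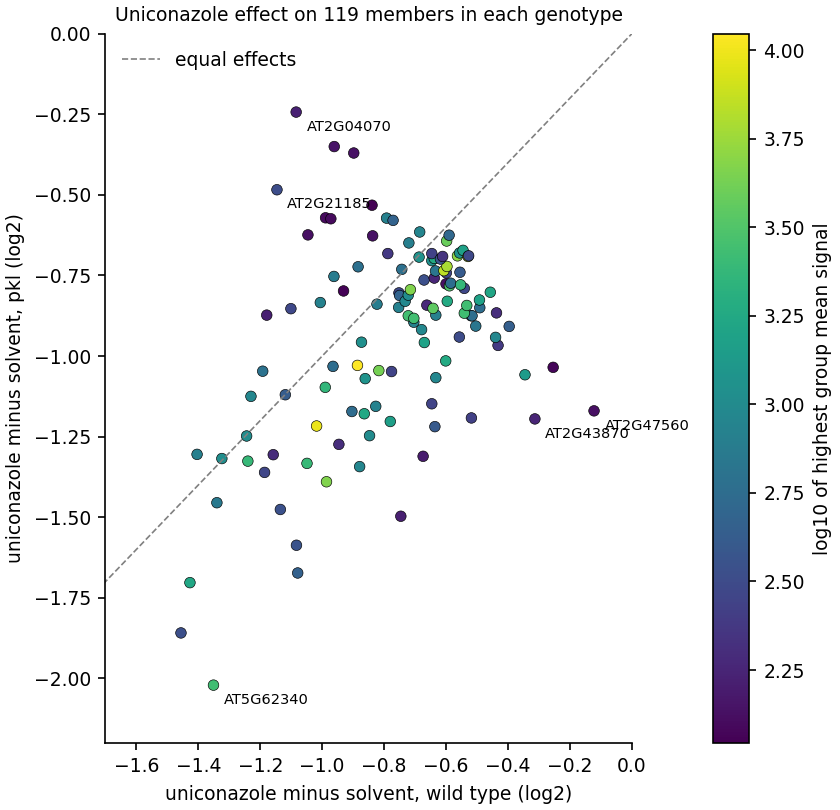
Uniconazole minus solvent (log2) in wild type (x axis) and in pkl (y axis) for the 119 genes, with colour for log10 of the highest group mean signal and a dashed line where both effects are equal. 94 of the points lie below the line, where the reduction is larger in pkl, and the labels mark AT5G62340 and the genes with the 2 most negative and the 2 most positive differences between genotypes.

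**Figure D4:**
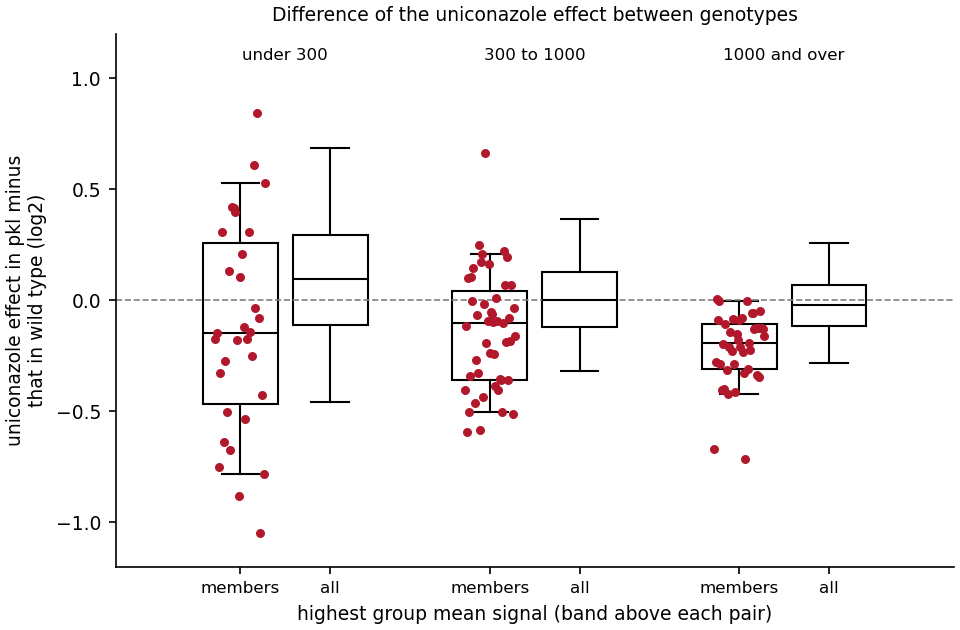
Uniconazole effect in pkl minus that in wild type (log2, y axis) by band of highest group mean signal, for the 119 genes (points over a box) and for all probe sets above the signal level (box alone). Boxes span the quartiles with the median as a line and whiskers are the 5th and 95th percentiles. In the band from 1000 upwards, 40 of 41 points lie below 0 and the median is -0.19, against -0.02 for all probe sets.

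The pkl effect was small by the choice of genes, and its split by medium is the same difference seen from the other side. On uniconazole, pkl minus wild type had a median of -0.12 (range -0.75 to 0.62) and was negative for 82 genes. On solvent the median was 0.02 (range -0.72 to 0.58) and it was positive for 64 genes. The sign of that median turned with the scaling, to -0.033 with arrays scaled to one median and to -0.004 after quantile normalization. The median over all probe sets turned as well, from 0.001 to -0.044 and -0.012. AT1G80280 was lower in pkl on both media, at -0.30 ± 0.10 on uniconazole and -0.40 ± 0.10 on solvent. AT5G59130 was higher in pkl on both, by 0.16 ± 0.06 on uniconazole and 0.29 ± 0.06 on solvent. AT2G43880 averaged 165 and 176 in pkl and wild type on uniconazole, and 401 and 287 on solvent, with pkl effects of -0.11 ± 0.15 on uniconazole and 0.47 ± 0.15 on solvent.

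In the gene order of RefSeq assembly TAIR10.1, the 119 genes were spread over all 5 chromosomes, with 34 on chromosome 1, 22 on 2, 24 on 3, 15 on 4 and 24 on 5. These are 28.6%, 18.5%, 20.2%, 12.6% and 20.2% of the set, against 26.3%, 14.8%, 20.5%, 14.1% and 24.3% of locus-only probe sets above the signal level. AT5G62330 and AT5G62340, the 2 genes with the lowest mean effect, are next to each other, and AT5G62280 lies 5 genes away. AT2G43870 and AT2G43880 are also adjacent. Other members within 10 genes of each other were AT1G02710 with AT1G02810, AT3G15720 with AT3G15800, and AT5G47900 with AT5G47920. The gene on the other side of AT5G62340, AT5G62350, was not chosen but fell as well, to 8951 in pkl on uniconazole against 13626.5 in pkl on solvent, and to 8486 in wild type on uniconazole against 11976 in wild type on solvent. Its effects were -0.61 ± 0.05 in pkl (limma adjusted p = 1.14e-09) and -0.49 ± 0.05 in wild type (adjusted p = 8.10e-08). AT5G62290, between AT5G62280 and AT5G62330, averaged 1793 and 2030.0 in pkl on uniconazole and on solvent, and 1868 and 2136 in wild type, and did not pass in either genotype.

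Of the immediate neighbours outside the set, 120 genes were measured, and the other 114 neighbouring positions had no probe set of 1 gene. The annotation used here lacked 8730 of the 22746 tested probe sets, so genes without a named probe set may still be on the arrays. In pkl, 26 of the 120 (21.7%) passed as lower on uniconazole, against 10.6% of all probe sets, and 13 (10.8%) as higher, against 11.4%. In wild type, 15 (12.5%) were lower, against 7.43%, and 9 (7.5%) higher, against 9.07%. The median effects of the neighbours were -0.09 in pkl and -0.07 in wild type. AT5G02550, next to AT5G02540, fell by 0.76 ± 0.10 in pkl and by 0.79 ± 0.10 in wild type on the log2 scale. AT4G29020, next to AT4G29030, fell by 0.69 ± 0.07 in pkl and by 0.31 ± 0.07 in wild type. These 2 neighbours were picked for their values. 3 of the genes had a second probe set on the same arrays. That of AT3G15240 had a mean uniconazole effect of -0.49. That of AT1G22330 averaged 23.2 in pkl on uniconazole and 93.7 in pkl on solvent, and 36.9 in wild type on uniconazole and 109 in wild type on solvent. That of AT2G32560 averaged 23.5 in pkl on uniconazole and 86.1 in pkl on solvent, and 29.3 in wild type on uniconazole and 45.2 in wild type on solvent. For AT1G22330 and AT2G32560, the 4 means on uniconazole and the last mean on solvent were under the bacterial control level, so no size of effect is given.

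Genes of known role on the same arrays give the setting, and none of them is among the 119. A gene counts as measured when the annotation used here gives it a probe set of its own. The lists were chosen with earlier results of these data known, so nothing is read from their counts against the background. Of 12 measured genes of a list on cell expansion and wall loosening (27 genes), 10 fell and 1 rose on uniconazole in pkl, and 8 fell and 2 rose in wild type, with medians of -1.09 and -0.83. The background was 10.6% lower and 11.4% higher of all probe sets in pkl, and 7.43% and 9.07% in wild type. EXLA2, an expansin-like protein gene, averaged 35.0 (under the bacterial control level) in pkl on uniconazole and 275 in pkl on solvent, and 68.9 in wild type on uniconazole and 280.1 in wild type on solvent. XTH18 and XTH19 encode xyloglucan endotransglucosylase/hydrolases, which cut and rejoin wall xyloglucan. XTH18 averaged 365 and 1021 in pkl on uniconazole and on solvent, and 372 and 989.8 in wild type. XTH19 averaged 2106 and 5979.6 in pkl and 3858 and 5665 in wild type, and its fall was larger in pkl (difference -0.99, limma adjusted p = 0.00902). EXPA15, an expansin gene, went the other way, with 2759 and 1642 in pkl and 3085 and 1569 in wild type.

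The 5 measured genes of the gibberellin list (23 genes) moved upwards or did not pass, with 4 higher and 0 lower in each genotype in limma (0 lower also at an unadjusted p under 0.05). GID1A and GID1B encode gibberellin receptors. GID1A averaged 2328 in pkl on uniconazole and 1006 in pkl on solvent, and 1582 in wild type on uniconazole and 753 in wild type on solvent. GID1B averaged 419 and 135 in pkl, and 639.6 and 196 in wild type. SLY1, an F-box protein that targets DELLA proteins for degradation, and XERICO, a RING finger protein, rose as well, by 0.63 and 1.67 in pkl and by 0.63 and 1.80 in wild type (log2), while GID1C had values of 0.09 and -0.12 and did not pass. Of 7 measured tubulin genes (of 15), which encode microtubule subunits, 5 fell and 0 rose in pkl and 3 fell and 0 rose in wild type, with medians of -0.29 and -0.15. TUB7 fell by 0.68 in pkl and by 0.46 in wild type (log2). With the GAPDH and actin ratios as covariates, 1 tubulin gene was lower in wild type. No link between these lists and the 119 genes was tested.

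**Figure D5:**
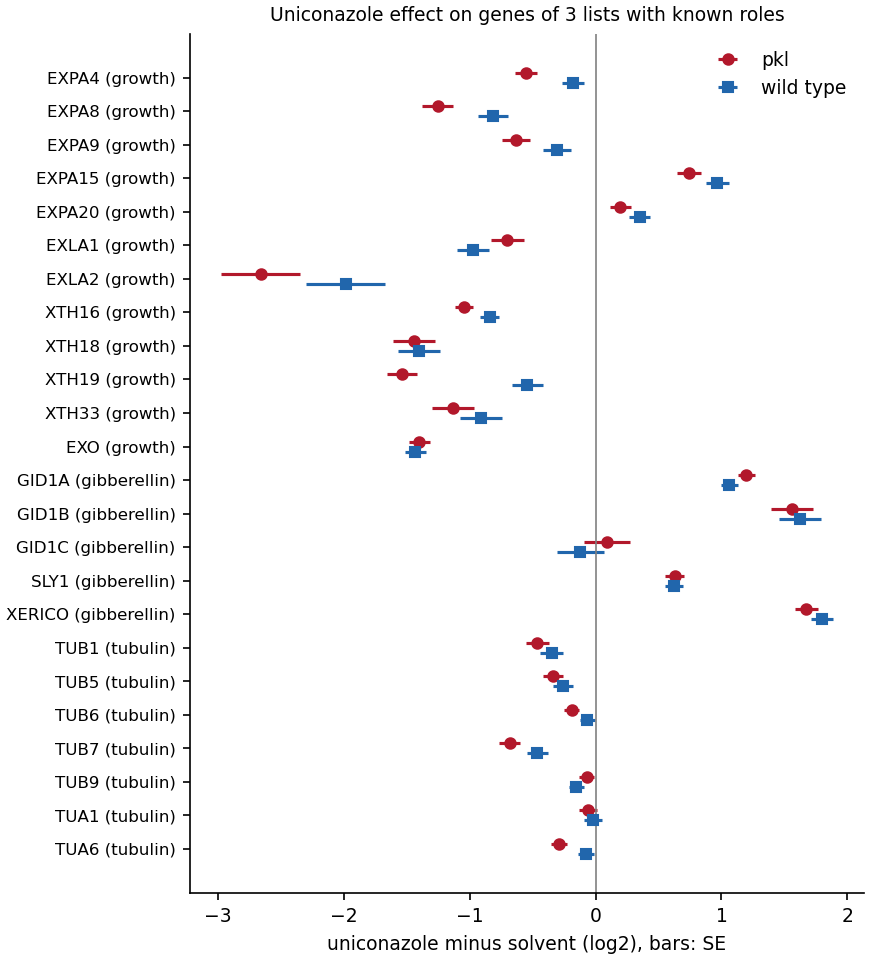
Uniconazole minus solvent (log2, x axis) in pkl (circles) and wild type (squares) for the 24 measured genes of the cell expansion, gibberellin and tubulin lists, with bars of 1 SE from the limma fit. The wall genes other than EXPA15 and EXPA20 lie left of 0, as do the tubulin genes, some within their SE of 0, and GID1A, GID1B, SLY1 and XERICO right of it, and XTH19 has the widest gap between genotypes.

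Some markers of other seed tissues and stages moved with the treatment too, and their lists were also chosen with earlier results of these data known. Of 6 measured seed maturation genes (11 in the list), 5 rose on uniconazole in each genotype. Their summed signal was 35743 to 45733 in pkl on uniconazole and 15656 to 19620.5 in pkl on solvent, and 26231 to 35589.8 in wild type on uniconazole and 13972 to 19129.9 in wild type on solvent. All 6 leaf and chloroplast markers were measured and 5 rose in each genotype. Their sums were 16965 to 26099 in pkl on uniconazole and 12279 to 15713 in pkl on solvent, and 18399.8 to 28308 in wild type on uniconazole and 15626 to 20545 in wild type on solvent. Of 2 root hair markers (6 in the list), EXPA18 rose in each genotype, and the sums were 1992 to 4854 in pkl on uniconazole, 652 to 1917 in pkl on solvent, 769.6 to 2328 in wild type on uniconazole and 529.6 to 1122 in wild type on solvent. ICL, a glyoxylate cycle enzyme and the 1 measured gene of 4 on the endosperm list, averaged 36255 and 36352 in pkl and 37329 and 39079.7 in wild type. It did not pass in either genotype. BAN, the 1 measured testa gene of 3, read 4.3 to 39.8 on all arrays, under the bacterial control level. BAN did not pass in either genotype, and at this level it cannot be told from background. Their part in the lower signal of the 119 genes was not tested.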

How the data were processed

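Germinating Arabidopsis seeds of 4 groups were measured on 24 ATH1 arrays. The deposited table holds intensities per probe set on a linear scale, which the authors made with MAS5, per the submitters' processing notes (version not given in the sources used here). They lie on a common scale, since trimmed means of the arrays were nearly equal. Affymetrix controls (64) were left out, and 22746 probe sets were tested on log2(signal + 16), an offset that understates folds of dim genes. One limma fit (3.58.1, R 4.3.3; lmFit, then eBayes with a variance trend) took all groups, and p-values are two-sided and adjusted by Benjamini-Hochberg within a contrast at 0.05. The fit was tested on simulated data with known differences between the genotypes' uniconazole effects. It recovered 25 of 50 at a log2 size of 0.5, 41 of 50 at 1, 43 of 50 at 1.5 and 50 of 50 at 2. Smaller differences, the size of most estimates here, can therefore be missed.

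Probe sets were named through GEO's platform annotation, and symbols and gene order came from RefSeq assembly TAIR10.1. Start positions in that assembly served only to put the genes in order. Sequences and protein families are not used here, since the sources used hold neither sequences nor product names. The bacterial control level (54.9) is the 95th percentile of 648 values of 27 control probe sets, and a mean under it gives a fold as a lower bound. Tables were drawn with Python 3.11.15.

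Members and lists were chosen with earlier results of these data known. Values are printed for the 8 members with the lowest mean uniconazole effect, the 4 brightest, those passing or with the largest difference between genotypes, and the 3 nearest each limit on either side. The other genes with values, such as those with a mean effect of -1 or lower, were chosen after seeing them. Alternatives were the offset, a signal filter, 2 scalings, no variance trend, a replicate block, RNA quality covariates and 1 array left out. The number of arrays limits precision.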

Additional observations from a re-analysis of the deposited data

Results flagged for a closer look

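In 68 groups of 6 arrays examined, 5 had an array farther from the rest than Dixon's limit at 95%, and chance gives about 1 in 20. The signal of AT5G62340 was 1157.2 on replicate 3 of wild type on uniconazole, where the other 5 lay between 930.6 and 1003.2. AT5G62280 read 32.5 on replicate 2 of pkl on uniconazole, and the others 110.4 to 150.2. AT1G78170 read 658.0 on replicate 2 of pkl on solvent, and the others 839.1 to 905.7. AT3G16370 read 8353.0 on replicate 1 of wild type on solvent, and the others 9737.5 to 10400.8. The mean log2(signal + 16) of the 119 genes was 9.23 on replicate 2 of pkl on solvent, and 9.37 to 9.44 on the others.

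AT5G62340 was also singled out because its uniconazole effect differed between pkl and wild type, by -0.67 on the log2 scale in the limma test given above.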

How the results depend on the processing

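The count of genes passing the test of the difference between genotypes was 1, and it was 2 (AT5G62340 and AT4G29030) with a filter on signal or with arrays scaled to one median. It was 0 without a variance trend and 0 with the GAPDH and actin ratios as covariates, and 0 to 1 with single arrays left out. AT5G62340 kept its direction in all 33 settings and passed in 11. The main fit did not pair samples by replicate number, and whether the numbers mark a shared set was not tested. In deviations from group means, the 36 correlations between same-numbered arrays of different groups ran from -0.18 to 0.39 (median 0.06). The 180 between different-numbered arrays ran from -0.36 to 0.32 (median -0.009). Of the same-numbered pairs 13 of 36 were over 0.1, against 34 of 180 of the others. With the replicate block 0 genes passed and AT5G62340 stood at -0.67 (limma adjusted p = 0.0545). Over all probe sets, calls of a uniconazole effect went with the block from 4999 to 5342 in pkl and from 3755 to 4128 in wild type. The adjusted p of AT5G62340 was 0.120 without a variance trend and 0.146 with the covariates. The median difference of the 119 genes ran from -0.20 to -0.13 over the other settings and from -0.19 to -0.12 with single arrays left out. Their median uniconazole effect in wild type was -0.63 with an offset of 64, and their median pkl effect on uniconazole, -0.12, was -0.22 after quantile normalization and -0.19 with arrays scaled to one median. Their median pkl effect on solvent, 0.02, turned to -0.004 and -0.033 under these, and ran from 0.000 to 0.043 with single arrays left out. The medians over all probe sets moved too. On uniconazole the median pkl effect went from 0.037 to -0.014 after quantile normalization and to -0.034 with arrays scaled to one median. On solvent it went from 0.001 to -0.012 and -0.044. The number of tubulin genes lower in wild type was 1 with the covariates and 2 to 4 with single arrays left out, and 1 to 2 cell expansion genes were higher in pkl with single arrays left out. The cause of these shifts was not tested. No other median over the 119 genes changed sign under any setting run. Kept by the rule were 91 genes with an offset of 64, 124 with an offset of 4, 158 with arrays scaled to one median, 127 after quantile normalization and 111 to 127 with single arrays left out. Of the 119, 80 were kept under all of these. In genes under a signal of 300 the spread between arrays limits what can be seen.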
